A study of Arabidopsis thaliana with 4 samples.

Results

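Roots of Arabidopsis thaliana seedlings of the wild type Col (Col-0) and of the ein3eil1 double mutant (alleles ein3-1 and eil1-1) were compared without treatment and with 150 µM CdSO4 given for 6 h. The tissue is labelled primary root and root tip, but 1 line of the extraction protocol names shoots beside roots. All seedlings were 5 days old and grown on MS medium, and each of the 4 groups had 1 library. EIN3 and EIL1 are transcription factors at the end of the ethylene pathway. Described here are 9 genes of jasmonate synthesis, repression, breakdown and response, of 1487 loci listed in either of the authors' tables: LOX2 (AT3G45140), LOX3 (AT1G17420), LOX4 (AT1G72520), AOC2 (AT3G25770), JAZ7 (AT2G34600), JAZ8 (AT1G30135), JAZ10 (AT5G13220), CYP94C1 (AT2G27690) and VSP2 (AT5G24770). They were chosen by locus identifier from genes that these tables list for their log2 ratio and false discovery rate with Cd, so their changes are given as a description and with no test. CYP94C1 and VSP2 are neither synthesis nor repressor genes: the former breaks the hormone down and the latter responds to it.

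Jasmonates are lipid hormones made from a fatty acid of the chloroplast membranes, after wounding, insect attack and other stress. Lipoxygenases (LOX) oxidise the fatty acid, allene oxide synthase and cyclase (AOC) make a cyclic precursor, and the active form is jasmonate joined to isoleucine. This conjugate brings the receptor COI1 together with JAZ proteins, which are then degraded and release transcription factors such as MYC2. JAZ and CYP94 genes are themselves targets of MYC2 and so form a negative feedback, and ethylene, through EIN3 and EIL1, steers jasmonate output towards another set of defence genes.

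The libraries held 16773595 to 19192279 reads. The tables list gene models with a log2 ratio of at least 1 in size and a low false discovery rate (FDR), 807 models for Col and 1001 for ein3eil1. For an unlisted gene the change may be under 2-fold or the reads too few, and its values are not known here. RPKM is the read count per kilobase of model length, scaled to the library total. In bulk tissue, fewer cells of a type and less RNA per cell cannot be told apart. Intervals are 95% exact counting intervals. With 1 library per group they hold no spread between plants, and no difference below has a replicate check. Neither EIN3 nor EIL1 was listed in either table, so the mutant genotype was not checked from these values, nor was the root label, since the tables hold changed models only. The labels do not say whether the untreated seedlings were kept for the same 6 h, so handling and Cd cannot be told apart.

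In Col, 2 of the 9 genes were listed, LOX3 and LOX4, both at least 2-fold higher with Cd, and none was listed as lower. Among all 28758 models tested by the authors, 1.48% were listed as higher and 1.19% as lower with 1 RPKM or more. In ein3eil1, 8 of the 9 were listed: LOX2, AOC2 and VSP2 as higher, and LOX3, JAZ7, JAZ8, JAZ10 and CYP94C1 as lower. There 2.08% of 28617 models were higher and 1.25% lower. Since the genes were taken from these listings, nothing is read from their counts against these shares. LOX3 was the 1 gene listed in both tables, and LOX4 was the 1 gene listed for Col alone.

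**Figure D1:**
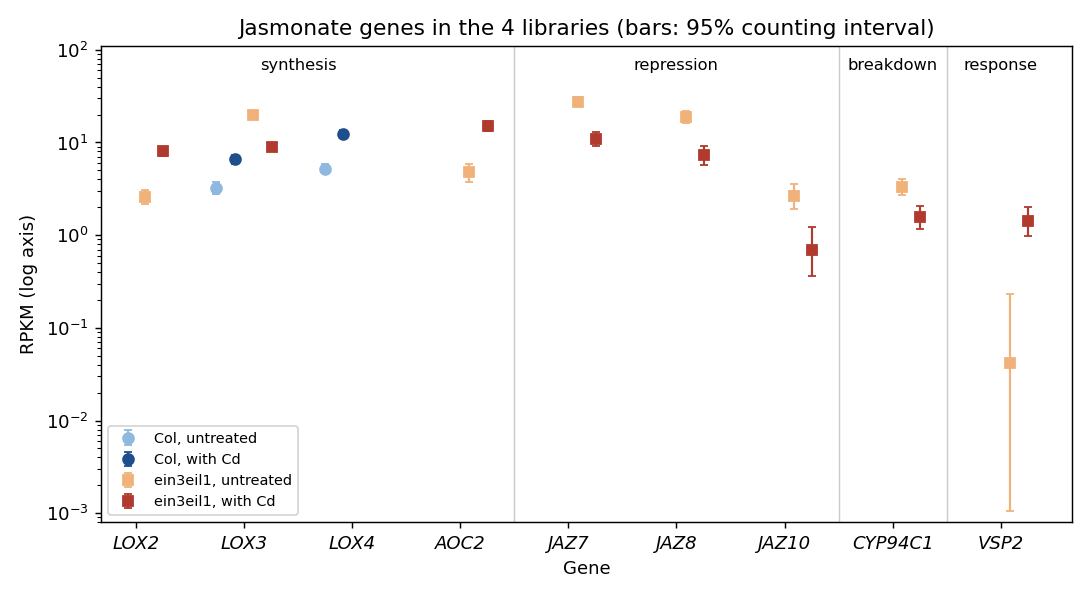
RPKM on a log axis for each gene in each library whose table lists it; circles are Col, squares ein3eil1, light colours untreated and dark colours with Cd, and bars are 95% counting intervals. JAZ7, JAZ8 and LOX3 stand highest in untreated ein3eil1, and VSP2 there rests on 1 read.

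The stretches just upstream of 4 of these genes are shown as examples. They are the repressor genes JAZ7 and JAZ8, lower in ein3eil1, and the lipoxygenase genes LOX3 and LOX4, higher in Col. JAZ10, CYP94C1 and LOX3 were lower in ein3eil1 as well. Each is the 300 bases before the annotated transcript start in the TAIR10.1 genome and RefSeq annotation, 5′ to 3′ on the gene's strand, which is the plus strand for all 4. They span chr2:14572730-14573029 (JAZ7), chr1:10596052-10596351 (JAZ8), chr1:5977023-5977322 (LOX3) and chr1:27308213-27308512 (LOX4). Capitals mark the G-box CACGTG and the T/G-box AACGTG, letters that MYC2 is known to bind.
JAZ7: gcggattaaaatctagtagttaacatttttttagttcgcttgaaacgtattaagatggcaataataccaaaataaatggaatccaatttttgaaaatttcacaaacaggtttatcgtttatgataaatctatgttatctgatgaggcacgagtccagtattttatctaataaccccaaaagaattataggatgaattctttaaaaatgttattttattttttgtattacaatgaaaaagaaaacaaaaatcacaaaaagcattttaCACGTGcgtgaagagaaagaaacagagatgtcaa
JAZ8: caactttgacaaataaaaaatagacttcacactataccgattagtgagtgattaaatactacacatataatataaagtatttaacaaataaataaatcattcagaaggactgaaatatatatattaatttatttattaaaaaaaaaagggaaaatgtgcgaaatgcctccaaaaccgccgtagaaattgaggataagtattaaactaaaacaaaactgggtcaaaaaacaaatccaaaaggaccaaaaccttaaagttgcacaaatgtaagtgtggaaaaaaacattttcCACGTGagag
LOX3: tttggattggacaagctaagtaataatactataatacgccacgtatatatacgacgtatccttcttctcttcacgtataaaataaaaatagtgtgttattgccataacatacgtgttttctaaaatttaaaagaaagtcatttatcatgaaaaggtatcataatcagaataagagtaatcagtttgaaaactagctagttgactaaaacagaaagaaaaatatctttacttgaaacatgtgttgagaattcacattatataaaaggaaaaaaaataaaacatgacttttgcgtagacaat
LOX4: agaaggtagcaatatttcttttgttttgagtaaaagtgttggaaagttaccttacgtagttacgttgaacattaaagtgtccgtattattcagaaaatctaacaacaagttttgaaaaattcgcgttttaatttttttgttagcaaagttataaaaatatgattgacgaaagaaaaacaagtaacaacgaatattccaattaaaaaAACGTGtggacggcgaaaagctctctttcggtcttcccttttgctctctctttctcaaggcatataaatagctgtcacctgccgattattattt

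A G-box, CACGTG, was present in 2 of the 9 windows, those of JAZ7 and JAZ8, 29 to 34 and 5 to 10 bases before the RefSeq start. In the authors' coordinates both models begin further downstream, so these distances hold for the RefSeq start only. The same letters were in 7.09% of 27443 windows of equal length before protein-coding genes. The T/G-box, AACGTG on either strand, was in the LOX4 window, 89 to 94 bases before the start, and in 8.71% of all windows. The LOX3 window held neither. Letters of the EIN3 binding core, ATGTA on either strand, were in 4 of 9 windows (LOX2, AOC2, JAZ8 and JAZ10) and in 58.9% of all windows. GCCGCC, the GCC-box of ethylene response factors, was in none of the 9 and in 2.26% of all. The G-box and T/G-box exclude each other at a given core, and matches of the other letters do not overlap them here. JAZ10, CYP94C1 and LOX3, also lower in ein3eil1, had no G-box in their windows. Letters other than the G-box and T/G-box that MYC2 may bind were not searched, so their absence is not shown. A match of letters is a description of the window and not a site, and its part in any change was not tested.

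The synthesis genes were listed in both directions. LOX3 (AT1G17420.1, chromosome 1, 5977411 to 5981480, forward, in the coordinates of the authors' tables) encodes a plastid lipoxygenase known for roles in wounded leaves and in flower fertility. It had 182 reads in untreated Col, 328 in Col with Cd, 998 in untreated ein3eil1 and 441 in ein3eil1 with Cd. As levels per length these were 3.21, 6.61, 19.9 and 8.88 RPKM. The untreated mutant library was the highest of the 4 and the untreated Col library the lowest. With Cd, LOX3 was 2.06-fold higher in Col (interval 1.72 to 2.49) and 2.24-fold lower in ein3eil1 (1.998 to 2.51).

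The difference between these log2 ratios, Col minus ein3eil1, was 2.21 (interval 1.90 to 2.51, from the 4 read counts). As only log2 ratios of at least 1 in size are listed, opposite signs alone fix most of this difference. Set across the tables, which share the RPKM scale, the LOX3 level in ein3eil1 was 6.19 times that in Col without Cd (5.28 to 7.29) and 1.34 times with Cd (1.16 to 1.55). Most of the distance between the genotypes was thus in the untreated libraries. Over the 243 models that both tables list with at least 10 reads in every library, the median log2 ratio of ein3eil1 over Col was 0.33 untreated and 0.27 with Cd. LOX3 held place 7 among them for the untreated ratio and place 108 for the ratio with Cd. In log2 the untreated ratio exceeds the ratio with Cd by the same 2.21. Its higher place untreated thus follows in part from the opposite signs and is no separate result.

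**Figure D2:**
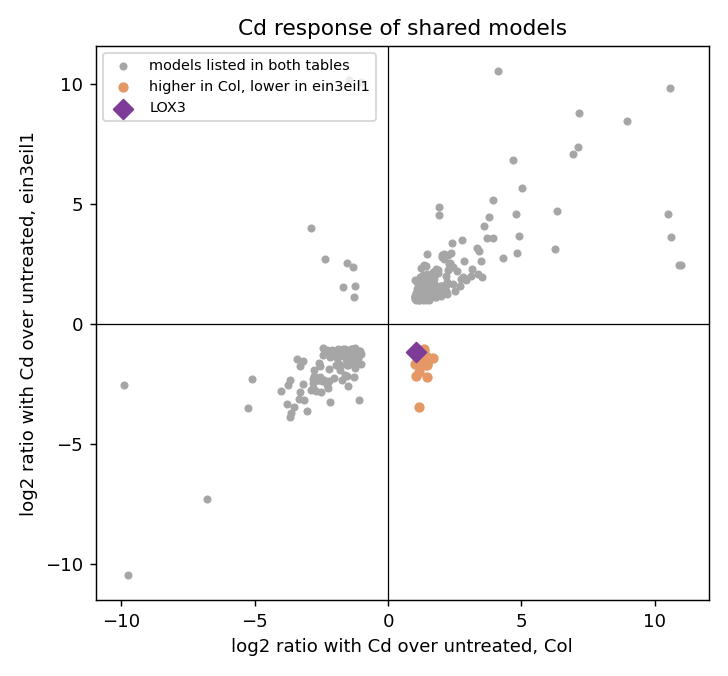
Each point is 1 of the 290 gene models that both tables list, with its log2 ratio with Cd over untreated in Col on the x axis and in ein3eil1 on the y axis. LOX3 (diamond) lies at 1.04 and -1.16 in the quadrant of the 18 models that were higher in Col and lower in ein3eil1.

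Of the 290 models in both tables, 154 were higher in both, 109 lower in both, 18 were higher in Col and lower in ein3eil1 like LOX3, and 9 were the reverse. The models most like LOX3 over the 4 libraries were PROPEP1, JAL33 and TIM10, by the root mean square distance of mean-centred log2 RPKM among those 243 models. PROPEP1 (AT5G64900.1), the precursor of a danger signal peptide, lay at a distance of 0.20. It stood at 19.7 RPKM in untreated Col, 49.9 in Col with Cd, 103 in untreated ein3eil1 and 50.9 in ein3eil1 with Cd. JAL33, a jacalin-like lectin gene, lay at 0.40 and TIM10, for a mitochondrial import protein, at 0.46; both are values of 1 transcript model (AT3G16450.2 and AT2G29530.2).

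**Figure D3:**
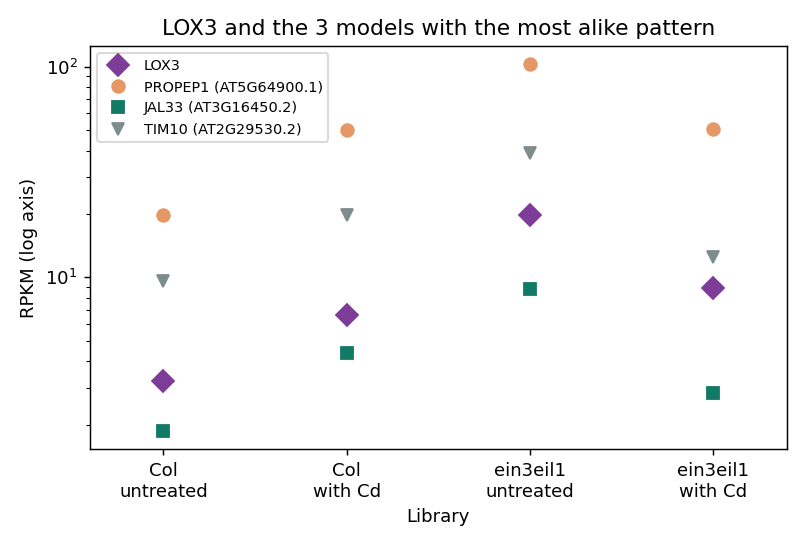
RPKM on a log axis in the 4 libraries for LOX3 and for the 3 models with the smallest distance of mean-centred log2 RPKM to it. In all 4 the untreated Col library holds the lowest value and the untreated ein3eil1 library the highest. As the 3 models were chosen for likeness over these libraries, the shared order follows largely from that choice.

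LOX4 (AT1G72520.1, chromosome 1, 27308515 to 27312754, forward) is the closest relative of LOX3 and acts beside it in flowers. It went from 304 to 636 reads in Col, or from 5.21 to 12.5 RPKM, a 2.39-fold higher level with Cd (2.08 to 2.75). Its level was above that of LOX3 in both Col libraries, 1.62 times without Cd (1.35 to 1.962) and 1.88 times with Cd (1.65 to 2.16). The coding sequences of the pair were identical at 80.7% of aligned bases in TAIR10.1, and their transcripts shared no run of bases longer than 24.

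LOX2 (AT3G45140.1, chromosome 3, 16525410 to 16529352, forward), the chloroplast lipoxygenase that makes most jasmonate in wounded leaves, was listed for ein3eil1. It had 125 reads untreated and 381 with Cd, which is 2.59 and 7.99 RPKM and a ratio of 3.08 (2.51 to 3.80). AOC2 (AT3G25770.1, chromosome 3, 9406873 to 9407955, forward) makes the cyclic precursor. It had 79 and 247 reads, or 4.74 and 15.0 RPKM, a 3.16-fold ratio (2.45 to 4.13). With LOX3 lower, the 3 listed synthesis genes of ein3eil1 thus did not share a direction. AOC2 lies between AOC1 and AOC3, with no other protein-coding gene between them. Its coding sequence was identical to that of AOC1 at 90.3% and to that of AOC3 at 82.4% of aligned bases, with shared runs of up to 47 and 50 bases, so some reads may have been divided among these copies. Neither AOC1 nor AOC3 was listed.

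**Figure D4:**
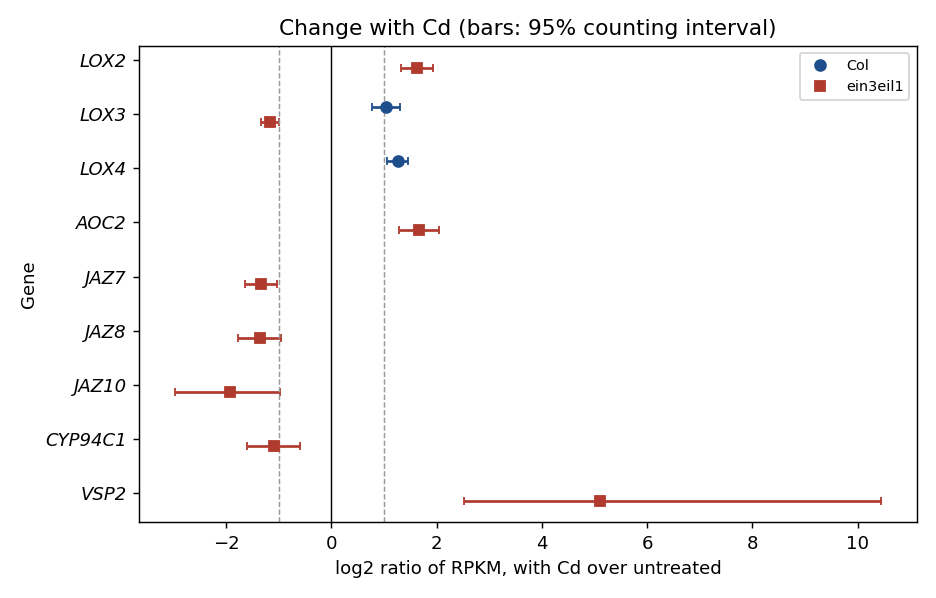
The log2 ratio of RPKM with Cd over untreated for each gene in each table that lists it (circles Col, squares ein3eil1), with 95% counting intervals; dashed lines mark the authors' threshold of 1 in size. LOX3 lies on both sides of 0, and the repressor genes and CYP94C1 lie below 0 in ein3eil1.

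The 3 repressor genes were lower with Cd in ein3eil1 and not listed in Col. JAZ proteins bind and silence MYC transcription factors. JAZ7 (AT2G34600.1, chromosome 2, 14573080 to 14573856, forward) went from 317 to 124 reads, or from 27.6 to 10.9 RPKM, 2.53-fold lower (2.05 to 3.14). JAZ8 (AT1G30135.1, chromosome 1, 10596492 to 10597239, forward), a JAZ protein that resists hormone-driven degradation, went from 179 to 69 reads, or from 18.7 to 7.28 RPKM, 2.57-fold lower (1.93 to 3.44). Both ratios were thus close to each other, and the coding sequences were identical at 76.0% of aligned bases, with no shared run over 18 bases.

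JAZ10 (AT5G13220.3, chromosome 5, 4218888 to 4220767, forward) is known for splice forms that differ in stability. Its listed model went from 46 to 12 reads, or from 2.64 to 0.697 RPKM, 3.79-fold lower (1.98 to 7.86). RefSeq has 7 transcripts of this gene, of which 1 model was listed, so the division of reads between splice forms was not known. An annotated gene on the other strand, AT5G02045, overlaps it, and the strand setting of the counting is not given in the sources used here.

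CYP94C1 (AT2G27690.1, chromosome 2, 11809306 to 11811215, forward) encodes a cytochrome P450 that oxidises the active hormone further and so inactivates it. It went from 108 to 50 reads, or from 3.33 to 1.56 RPKM, 2.14-fold lower (1.51 to 3.05) in ein3eil1. It lies just inside the threshold of the authors' table, with a log2 ratio of -1.09, as does LOX3 in Col with 1.04. Values just outside are not in the tables.

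VSP2 (AT5G24770.1, chromosome 5, 8500476 to 8502224, reverse) encodes a vegetative storage protein with phosphatase activity, a common readout of the MYC arm of jasmonate signalling in leaves. It had 1 read in untreated ein3eil1 and 34 with Cd, or 0.0416 and 1.43 RPKM. The ratio was 34.4-fold with an interval from 5.77 to 1398, as it rests on 1 untreated read. With a pseudocount of 1 RPKM the log2 ratio of VSP2 was 1.22 in place of 5.10. VSP2 is adjacent to VSP1, whose coding sequence was identical at 89.5% of aligned bases with a shared run of up to 54 bases. VSP1 was not listed.

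By level per length, untreated ein3eil1 ranked JAZ7 above LOX3 (1.39 times, 1.22 to 1.58), while LOX3 and JAZ8 did not differ beyond counting error (1.06 times, 0.906 to 1.25). AOC2, CYP94C1, JAZ10 and LOX2 followed between 4.74 and 2.59 RPKM, and neither CYP94C1 and JAZ10 nor JAZ10 and LOX2 differed beyond counting error. With Cd, AOC2 was highest, 1.38 times the level of JAZ7 (1.105 to 1.72). JAZ7, LOX3, LOX2 and JAZ8 then lay within 10.9 to 7.28 RPKM, and no neighbours among them differed beyond counting error. Pairs further apart in this order, such as JAZ7 and JAZ8, were not compared.

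By size of change, as deposited without a pseudocount, among listed models of the same direction in ein3eil1, VSP2 held place 24 of 632 higher models, AOC2 261 and LOX2 272. Among 369 lower models JAZ10 held place 92, JAZ8 203, JAZ7 212, LOX3 278 and CYP94C1 312. In Col, LOX4 held place 303 and LOX3 place 419 of 449 higher models. Apart from VSP2 and JAZ10, the changes of these genes were thus in the middle or lower range of what the tables list. In the authors' deposited table the least certain of them were JAZ10, with an FDR of 4.9e-05, and CYP94C1, with 3.73e-05; these compare the reads of 2 libraries and not the conditions.

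The other genes of the pathway were taken from lists of 71 jasmonate loci, which include the 9 genes. In Col 2 of 71 were listed as higher and 0 as lower, beside 1.48% and 1.19% of all models, and both were LOX genes. In ein3eil1 5 were higher and 7 lower, beside 2.08% and 1.25% of all models. The median log2 ratio was -1.13 over these 12, beside 1.16 over all models listed for ein3eil1. No listed ratio lies between -1 and 1, so such a median shows mainly which direction holds more models. Of the 12 listed loci, 8 are among the 9 genes, which were taken from the listings, and the other 62 loci account for 4. Of those 4, CLH1 and NATA1 were higher and ORA47 and TAT3 lower. By role, 2 of 21 synthesis genes were higher and 1 lower, 3 of 17 repression genes and 1 of 10 breakdown genes were lower, and none of 4 perception and activation genes (COI1, MYC2, MYC3 and MYC4) was listed. All listed genes of synthesis, repression and breakdown were among the 9, so these counts are no separate evidence. AOS, OPR3, JAR1 and the other JAZ genes of the lists were not listed in either table. Outside the lists, and chosen after its values were seen, the authors' annotation gave 1 more model a jasmonate metabolism term, OPR1 (AT1G76680.1), an oxophytodienoate reductase gene. In ein3eil1 OPR1 had 159 untreated reads and 402 with Cd, at 6.45 and 16.5 RPKM, a 2.56-fold ratio (2.12 to 3.09).

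The response genes of the MYC branch were listed in both directions in ein3eil1, 3 of 11 higher and 2 lower, where 2.08% and 1.25% of all models were. This list and the wound and shoot lists below were chosen with earlier results of these data known. Nothing is therefore read from their counts against these shares. Besides VSP2, the higher genes were CLH1, for a chlorophyllase, and NATA1, an acetyltransferase gene. CLH1 had 7 reads untreated and 92 with Cd, at 0.322 and 4.27 RPKM, a 13.3-fold ratio (6.199 to 34.0). NATA1 had 3 and 58 reads, at 0.181 and 3.54 RPKM, a 19.6-fold ratio (6.37 to 97.6). All 3 genes had 7 or fewer untreated reads. ORA47, a transcription factor gene that activates jasmonate synthesis genes, went from 1724 to 762 reads, or 111 to 49.4 RPKM, 2.24-fold lower (2.05 to 2.44). TAT3, a tyrosine aminotransferase-like gene, went from 481 to 164 reads, or 17.2 to 5.94 RPKM, 2.90-fold lower (2.42 to 3.48). ORA47 and TAT3 thus had many untreated reads. A gene can be listed as lower only with enough untreated reads, so this split by read number follows in part from the listing. None of the 8 genes of the branch shared by ethylene and jasmonate, such as ORA59, ERF1 and PDF1.2, was listed in either table.

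**Figure D5:**
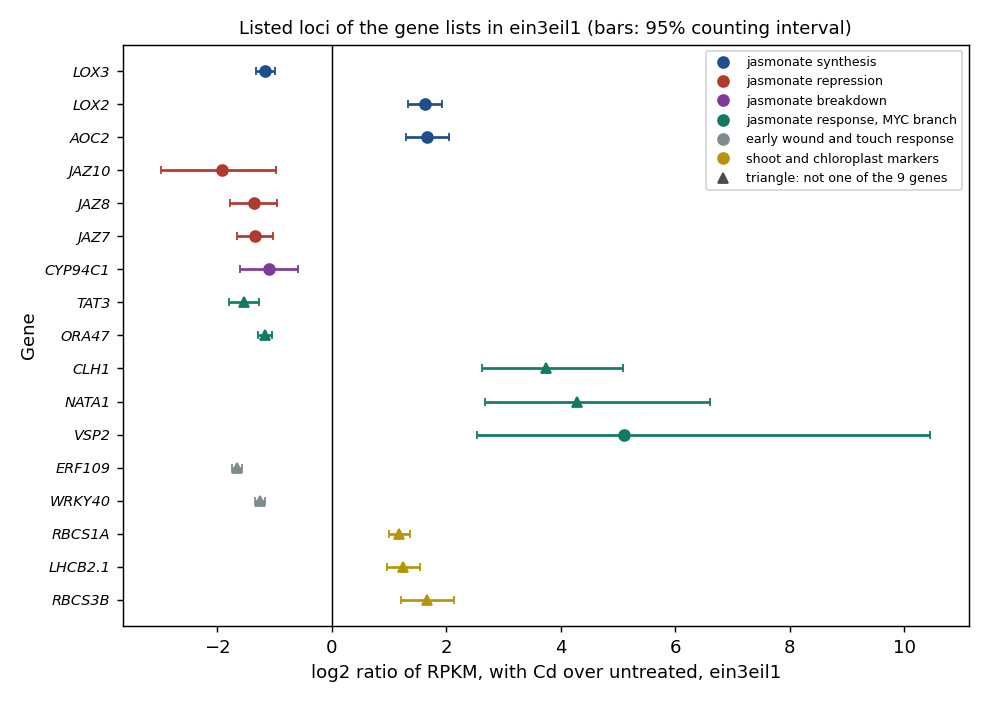
The log2 ratio of RPKM with Cd over untreated in ein3eil1 for every locus of the gene lists that the table lists, coloured by list, with 95% counting intervals; circles are the 9 genes and triangles other loci. CLH1, NATA1 and VSP2 lie far above 0, and the listed repressor genes, WRKY40 and ERF109 lie below it.

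Of 11 early wound and touch genes, 2 were lower in ein3eil1, WRKY40 and ERF109, where 1.25% of all models were: WRKY40 went from 179 to 75.4 RPKM and ERF109 from 169 to 53.5 RPKM. In Col, where 1.48% of all models were higher, 1 of the 11 was listed, the calmodulin-like TCH3, at 3.16 RPKM untreated and 8.58 RPKM with Cd. JAZ7, JAZ8, JAZ10, LOX3, CYP94C1, ORA47 and TAT3 were lower with Cd in ein3eil1 as well. In the same library LOX2, AOC2, VSP2, CLH1 and NATA1 were higher. The part of the wound genes in these changes was not tested.

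Of 12 shoot and chloroplast markers, 3 were listed in ein3eil1, all as higher, and none in Col; the share of all models listed as higher was 2.08% and 1.48%. RBCS1A stood at 20.7 and 46.9 RPKM, RBCS3B at 3.23 and 10.2 RPKM, and LHCB2.1 at 7.54 and 17.9 RPKM. Their summed level was 31.4 RPKM in untreated ein3eil1 and 75.0 RPKM with Cd, and no listed marker was at 0. LOX2 and VSP2, which are known mainly from shoots, and AOC2 were higher in the same library, and the part of the shoot markers in that was not tested. Since the extraction protocol names shoots as well as roots, the amount of shoot tissue in each library is not known.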

How the data were processed

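The values are those of 2 deposited tables, 1 per genotype. Per the file headers, the authors give for each gene model the read counts of both libraries, RPKM, the log2 ratio of RPKM, a p-value and an FDR. The aligner, the counter, the strand setting and the build of the genome were not given in the sources used here. Deposited RPKM values are counts over model length and a library constant, from which the library totals follow, and a count of 0 has an RPKM of 0.001. The number of models tested was recovered from the authors' p-value and FDR columns as the 1 value between 20000 and 40000 at which every rank is whole.

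Ratios are of deposited RPKM without pseudocount. A locus takes its listed model with the most reads and counts as higher or lower at 2-fold and 1 RPKM. Ratio intervals come from the Clopper-Pearson interval of the read share, and differences of log2 ratios have normal intervals; both cover counting error only. With 1 library per group no test was made. The lists hold 94 loci, all in the RefSeq annotation. The genes and lists were chosen with earlier results of these data known. All 9 genes and every listed locus of the jasmonate lists are named, with up to 4 listed loci of the wound and shoot lists. Promoter windows and coding sequences were read from TAIR10.1 by locus. Of 807 and 1001 listed models, 794 and 982 matched a gene there, and all of these overlapped it on the same strand. Ratio intervals were checked on simulated reads with counting error only and a single size of change. That check does not cover untreated counts as low as those of VSP2 and NATA1. Computations used SciPy 1.17.1, pandas 2.3.3 and numpy 2.4.6 under Python 3.11.15, and plots used matplotlib 3.10.9. Alternatives were a pseudocount of 1 RPKM, centred ratios, other thresholds and summed models.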

Additional observations from a re-analysis of the deposited data

Results flagged for a closer look

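LOX3 moved in opposite directions with Cd in the 2 genotypes, by a difference of log2 ratios of 2.21. Most of this size is fixed by the opposite signs, since only log2 ratios of at least 1 in size are listed. With 1 library per group this difference was not tested across samples.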

How the results depend on the processing

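With a pseudocount of 1 RPKM, 1 gene in place of 2 was at least 2-fold higher in Col, as the log2 ratio of LOX3 became 0.856. In ein3eil1 4 genes in place of 5 were then lower, as the log2 ratio of CYP94C1 became -0.758. At a threshold of 4-fold the counts became 0 higher in Col, 1 higher and 0 lower in ein3eil1. A minimum of 5 RPKM left 3 lower in ein3eil1, as did an FDR of 1e-05 or less in the authors' deposited table. Centring on the median of listed models, log2 1.06 in Col and 1.16 in ein3eil1, left 0 higher in Col and 1 higher in ein3eil1 and turned the LOX3 ratio in Col to -0.0153. No listed ratio lies between -1 and 1, so the median does not measure a scaling error. Of 30 log2 ratios of single genes under a pseudocount, centring or summed models, 29 kept their sign. Most of these could not change sign, so the count is no measure of robustness. Each listed gene had 1 listed model, so summing left its ratio as it was. A pseudocount added to both libraries cannot turn a ratio, nor can this centring turn a lower one. The LOX3 difference was 1.93 with the pseudocount and 2.31 when centred. The untreated LOX3 log2 ratio, ein3eil1 over Col, was 2.63, and 2.31 with the pseudocount, an alternative chosen after seeing the data. No paired analysis was possible because each group has 1 library. VSP2, NATA1 and CLH1 rest on 1, 3 and 7 untreated reads, which limits their ratios.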
